A study of Homo sapiens with 18 samples.

Results

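Human embryonic stem cells (hESC) kept for 7 d in 4% oxygen were compared with the same lines kept for 7 d in 21% oxygen. The levels compared are those of 6 of the 18 arrays of the series, namely 3 hypoxia and 3 normoxia arrays chosen by their labels, while SEs and p-values come from a fit of all 18 arrays with the line as a block. The lines were H9, HS360 and HS401, which are established hESC lines without a labelled genetic change, and each line gave 1 culture and 1 array per condition. Stock cultures grew on human foreskin fibroblasts, whereas the cells for the arrays were passaged onto Matrigel in mTeSR1 medium, a matrix and a medium that need no feeder cells. Plates of 7 d entered the hypoxia incubator on the day after seeding, and both conditions had 5% CO2. The other 12 arrays hold the same lines after 2 h and 24 h in either oxygen level, and those cultures had grown in normoxia before their transfer. RNA was measured on Affymetrix Human Exon arrays, and every level below is a log2 intensity after RMA, a method that corrects background, normalizes arrays to each other and summarizes the probes of a gene. Values of the 3 lines are always given in the order H9, HS360 and HS401.

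Cells sense oxygen through prolyl hydroxylases, which mark the HIF alpha proteins for VHL-dependent degradation while oxygen is plentiful. In low oxygen HIF alpha proteins pair with ARNT, bind short hypoxia response elements and switch on genes of glucose uptake, glycolysis, angiogenesis and collagen modification, together with genes of their own feedback such as EGLN1 and EGLN3. Human ES cells are held in the pluripotent state by factors such as OCT4 (POU5F1) and SOX2 and by NODAL and FGF signalling, and they are often grown in lowered oxygen to limit spontaneous differentiation.

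Markers of hESC were expressed as the label says, with 1 exception. Of 8 markers 7 were measured, and 6 of them lay above the median level of all features, which was 7.22 in normoxia at 7 d. LIN28A, an RNA-binding protein of pluripotent cells, was the brightest at 12.21, 12.07 and 12.28 in normoxia and 12.39, 12.25 and 12.46 in hypoxia. POU5F1 was that exception, at 6.43, 7.26 and 6.65 in normoxia and 6.99, 7.30 and 6.91 in hypoxia. POU5F1 has near-identical pseudogenes, so its feature is uncertain. All 6 mesendoderm markers also lay above the median level in normoxia, as did 2 of 4 neural progenitor and 2 of 4 trophoblast markers. A level above the median thus does not by itself set hESC apart. In the normoxia arrays the hESC markers averaged 10.23 to 10.37 and the mesendoderm markers 7.29 to 8.36. Leukocyte markers averaged 5.03 to 5.34 per array and endothelial markers 6.23 to 6.69. The lowest of each 4 were PTPRC at 3.36 to 3.69 and PECAM1 at 5.11 to 5.47. In each type 1 of 4 lay above the median level in normoxia, namely TYROBP (7.73 to 8.14 over the 6 arrays) and VWF (6.79 to 7.94). The 9 fibroblast markers averaged 7.81 to 7.92 in the normoxia arrays and 7.63 to 8.59 in the hypoxia arrays. Among these, COL1A1 was at 11.08, 11.32 and 10.98 in normoxia and 11.95, 11.39 and 11.92 in hypoxia, while FAP lay at 5.30 to 5.47 and 5.37 to 6.19. Fibroblast markers were thus higher in hypoxia in H9 and HS401 and not in HS360. In a fit that also held their mean level (the fibroblast covariate), 25 of the 79 named genes that passed the limits of the study, defined below, no longer did. These were SPP1, MT2A, MT1H, PLOD2, LEFTY2, KCNJ2, KLF6, COL1A1, COL3A1 and HTR7 among the higher genes, and FRZB, MIR17HG, RSPO3, NETO2, PCF11, LGR5, HCCS, POLR3B, POLD3, SRSF6, RFC3, FZD4, NIP7, TOMM5 and COA7 among the lower ones. COL1A1 and COL3A1 are themselves part of that mean. MT1H (0.90 with the covariate against 0.85) and LGR5 (-0.74 in both fits) did not shrink. Whether fibroblast RNA underlies any change given here was not tested. The normoxia arrays had a lower quartile of 5.89 to 5.98 and the hypoxia arrays one of 5.99 to 6.09, and it was lower than this, at 5.64 to 5.70, in 5 of the arrays of 2 h and 24 h. In bulk RNA, a change in the share of a cell type and a change in RNA per cell cannot be told apart.

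After 7 d in hypoxia 5 of 23536 features (0.0212%) passed an adjusted p under 0.05 in limma. MYC, IGFBP2, SLC2A1 and ADCY8 were higher and FLRT3 was lower. The study used less strict limits, a fold change above 1.5 at an unadjusted p below 0.01, and by these 120 features (0.510%) were higher and 84 (0.357%) lower. In the text that follows, rose and fell mean past these study limits unless an adjusted p is given. At an unadjusted p under 0.05 there were 1671 features (7.10%), 798 of them higher (3.39%) and 873 lower (3.71%). Leaving out any 1 of the lines removed all 5 adjusted calls, while the fold changes of the 5 genes kept their size. None of the 5 was called without the block, with a block for each pair of line and time, with arrays centred on their median or with the fibroblast covariate. With the line as a random block MYC alone was called, and in the 6 arrays of 7 d FLRT3 alone. With the lower quartile of each array as a covariate 40 features passed the adjusted p, among them all 5.

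**Figure D1:**
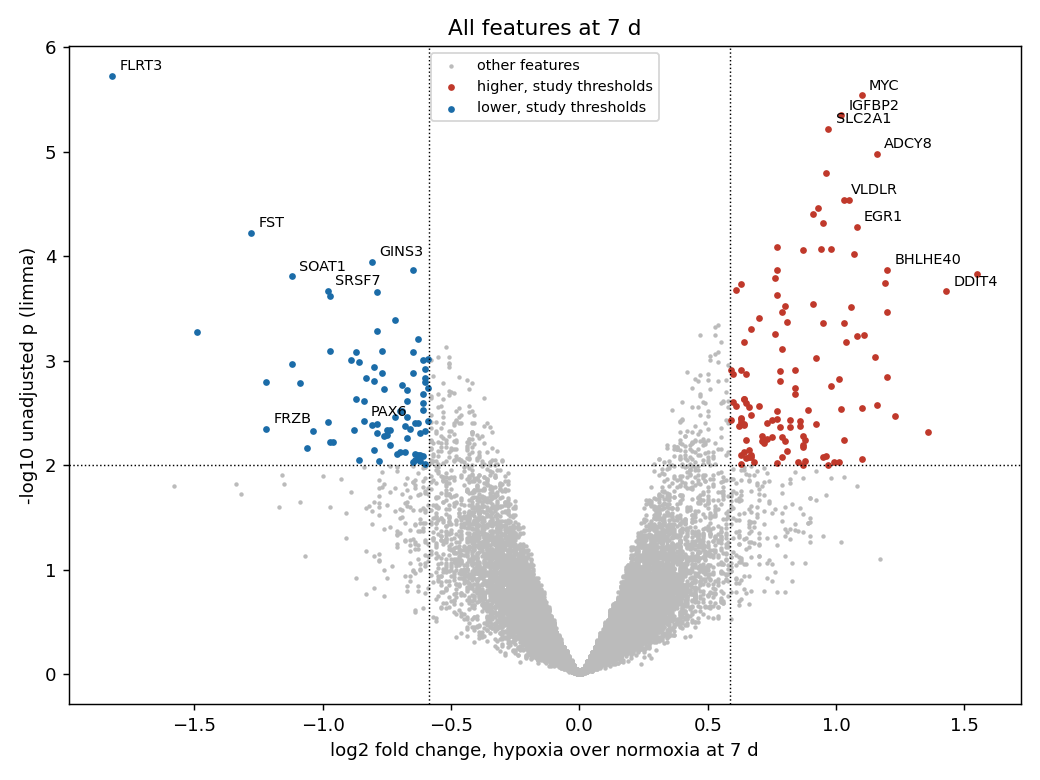
Each point is a feature, with the log2 fold change of hypoxia over normoxia at 7 d on the x axis and the −log10 of limma's unadjusted p on the y axis; dotted lines mark the study limits, and genes of the Y chromosome and XIST are not drawn. The 120 higher (red) and 84 lower (blue) features lie outside the dotted lines, with MYC, IGFBP2, SLC2A1, ADCY8 and FLRT3 at the top.

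The 3 lines were similar in the spread of their responses and differed in how far they shared them. Over all features the log2 differences had an SD of 0.35, 0.28 and 0.35 and a median of 0.14, 0.05 and -0.02. Across features, the differences of H9 and HS360 had a Pearson r of 0.406, those of H9 and HS401 0.224 and those of HS360 and HS401 0.115. Among features above the median level these values were 0.552, 0.401 and 0.226. The correlations are across features, which are not independent replicates, and arrays of 1 normalization share its effects. In all 3 lines 5891 features (25.0%) were higher and 3352 (14.2%) lower, and a fold above 1.5 was reached in every line by 54 features upward and 34 downward. Of the 120 higher features 117 had the same sign in each line and 87 had hypoxia arrays entirely above the normoxia arrays, which 10.7% of all features had. Of the 84 lower features all 84 had the same sign and 60 had separate groups (4.03% of all features). Of the higher features 55.0% lay below the median level in normoxia, against 20.2% of the lower features. The normoxia arrays are part of the comparison that selected these features, which by itself favours low normoxia levels among the higher ones. By the level over both conditions, 54 of the 120 higher and 24 of the 84 lower features lay at or below the median. Dim features leaned upward, with a median of 0.10 for those at or below the median level and 0.01 for those above it. By line the dim features were at 0.24, 0.08 and -0.01, so the lean was largest in H9 and absent in HS401. The median over all features was 0.06.

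**Figure D2:**
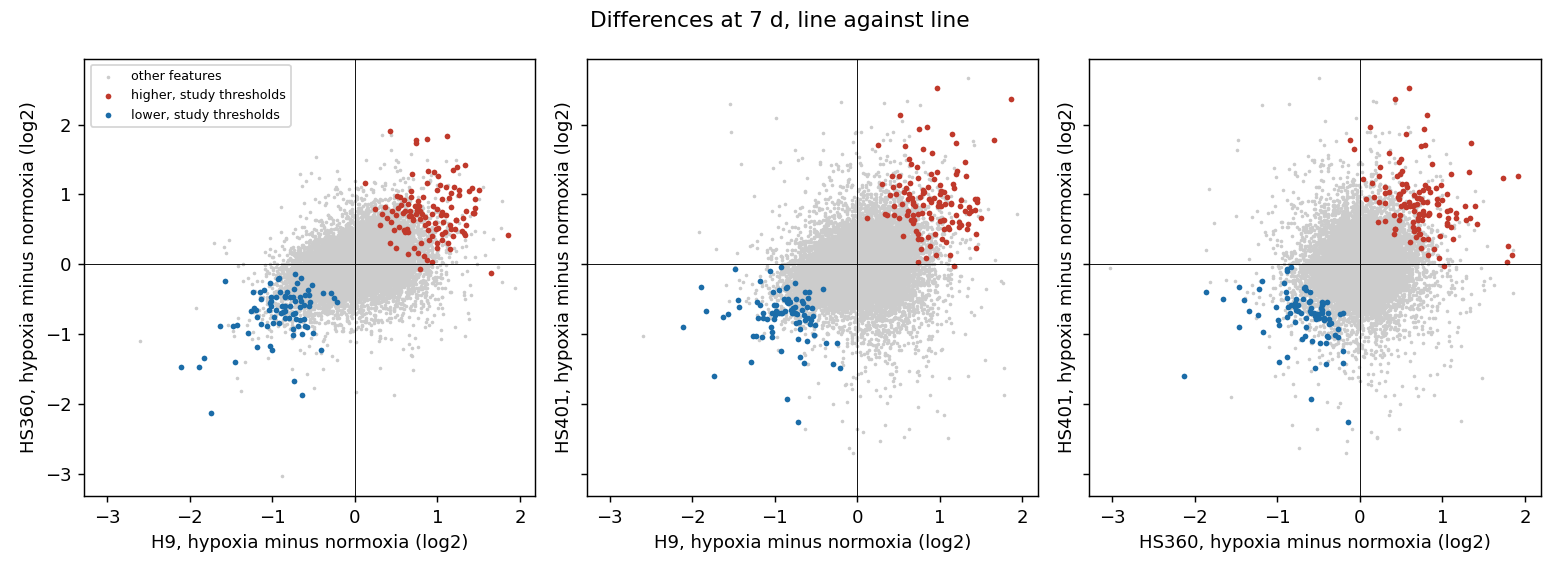
Each point is a feature, with the log2 difference of hypoxia minus normoxia at 7 d in 1 line on the x axis and in another line on the y axis. Features higher (red) and lower (blue) by the study limits lie mostly in the upper right and all in the lower left; the cloud of H9 against HS360 (r = 0.406) is more slanted than that of HS360 against HS401 (r = 0.115).

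Genes known to respond to low oxygen formed the broadest group that remained high after 7 d. Of 34 measured hypoxia-responsive genes 12 rose and none fell, 33 were above 0, and the median was 0.59, with 0.73, 0.50 and 0.62 in the lines. DDIT4, which restrains mTOR signalling under stress, lay at 8.98, 8.30 and 8.66 in normoxia and at 10.17, 9.65 and 10.40 in hypoxia. Every hypoxia array exceeded every normoxia array, and the fold change was 2.69 (log2 1.43, SE 0.29, adjusted p = 0.167). BHLHE40, a basic helix-loop-helix repressor of the clock and of differentiation, lay at 7.51, 7.31 and 7.76 in normoxia and 8.71, 8.42 and 9.06 in hypoxia, again without overlap. INSIG2, which holds the SREBP escort protein in the endoplasmic reticulum, rose by 1.20 (SE 0.30), from 8.32, 7.87 and 8.28 to 9.28, 9.19 and 9.60.

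VLDLR, a receptor for triglyceride-rich lipoproteins, rose by 1.03 (SE 0.17, adjusted p = 0.0854), from 9.23, 9.93 and 9.46 to 10.66, 10.67 and 10.39. PLOD2, which hydroxylates collagen lysines, rose by 0.86 (SE 0.25). STC1, a secreted glycoprotein hormone, rose by 1.06 (SE 0.22), from 8.30, 8.87 and 9.23 to 9.56, 9.86 and 10.15. The groups did not overlap for any of these 3 genes. NDRG1, a stress-responsive gene linked to differentiation, rose by 1.08 (SE 0.25), and here HS360 in hypoxia (7.48) stayed just under H9 in normoxia (7.50). Without HS401, DDIT4 (1.27), INSIG2 (1.14), NDRG1 (0.89) and PLOD2 (0.76) did not pass, nor did NDRG1 without H9 (0.98). INSIG2 and PLOD2 did not pass without the line as a block either. BHLHE40, VLDLR and STC1 passed in each of these fits. The other genes of the list that rose were PPFIA4, RAB20, ELL2, PDGFB and APLN, at 0.93, 0.81, 0.78, 0.66 and 0.64. Familiar HIF targets below the limits were VEGFA at 0.50, ADM at 0.74, BNIP3 at 0.33, EGLN3 at 0.26 and ANGPTL4 at 0.25.

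The response of some of these genes was similar at the 3 times, and that of others was larger at 7 d. DDIT4 had a log2 fold change of 1.79 at 2 h and 1.37 at 24 h, and INSIG2 1.11 and 1.39. VLDLR had 0.36 and 0.47, STC1 -0.02 and 0.30, and NDRG1 0.13 and 0.71. For no feature did the effect at 7 d differ from the mean of the 2 h and 24 h effects at an adjusted p under 0.05 (0.00%), and 1031 features (4.38%) did so at an unadjusted p under 0.05. The unadjusted p of this difference was 0.676 for DDIT4, 0.0107 for VLDLR and 0.00472 for STC1. Of the 120 features higher at 7 d, 6 were also past the study limits upward at 2 h and 20 at 24 h, while none of the 84 lower features was past them downward at either time.

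Sequences upstream of DDIT4 and BHLHE40 are shown because these genes led the group. The RefSeq promoter table for GRCh38.p14 held windows for 7 of the 12 hypoxia-responsive genes that rose, and only the 250 bases before the start site were searched. ACGTG or GCGTG, the core of the hypoxia response element, was sought on both strands, and ACGTG is also part of CACGTG, an E-box. All 7 windows held at least 1 such core and at least 2 by count, against 50.9% of 15078 promoters of measured genes with 1 or more and 24.4% with 2 or more. Of the genes with an adjusted call, IGFBP2, SLC2A1 and FLRT3 had windows, and none of these held a core. VLDLR had 5, BHLHE40 4, DDIT4, PLOD2 and PPFIA4 3 each, and INSIG2 and APLN 2 each. A match is a string of letters and not evidence of binding. The 7 genes with windows come from a list of known hypoxia-responsive genes, and list members that did not rise were not searched. The counts therefore do not link the core to the rise at 7 d. Capitals mark the cores on either strand in the windows below, which are chr10:72273674-72273923 and chr3:4979187-4979436, both on the plus strand. In BHLHE40 the first run of capitals is CACGTG, which holds the core on both strands and counts as 2.
DDIT4: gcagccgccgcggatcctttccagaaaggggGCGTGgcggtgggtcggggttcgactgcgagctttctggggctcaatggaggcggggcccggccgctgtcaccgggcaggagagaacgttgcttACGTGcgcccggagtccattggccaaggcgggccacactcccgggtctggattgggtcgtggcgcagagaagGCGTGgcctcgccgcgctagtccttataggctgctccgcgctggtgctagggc
BHLHE40: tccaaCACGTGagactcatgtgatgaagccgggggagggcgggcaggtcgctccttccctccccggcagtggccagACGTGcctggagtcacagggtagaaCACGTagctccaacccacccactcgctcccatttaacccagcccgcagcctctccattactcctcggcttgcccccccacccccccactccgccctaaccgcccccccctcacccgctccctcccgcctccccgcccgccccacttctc

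Glucose uptake was among the 5 adjusted calls. SLC2A1, the glucose transporter GLUT1, lay at 11.71, 11.51 and 11.27 in normoxia and 12.71, 12.30 and 12.40 in hypoxia (log2 fold change 0.97, SE 0.14, adjusted p = 0.0357). It was bright in normoxia already, and the groups did not overlap. PFKFB4, a bifunctional enzyme that sets the level of fructose 2,6-bisphosphate, rose by 1.04 (SE 0.24), from 8.01, 7.77 and 8.23 to 9.02, 9.04 and 9.06. HK2, which phosphorylates glucose, and PDK1, which inhibits pyruvate dehydrogenase, rose by 0.76 (SE 0.17) and 0.87 (SE 0.26), and their groups did not overlap either. HK2 did not pass without HS401 (0.72), nor did PDK1 without HS360 (0.66) or without HS401 (0.99). These 4 were all that rose among 22 genes of glucose uptake and glycolysis, whose median was 0.32. The glycolytic enzymes GAPDH, ENO1, LDHA and TPI1 were at 0.03, 0.12, 0.17 and 0.19. None of the 10 oxygen-sensing genes passed the study limits. HIF1A was at 9.64, 9.92 and 9.98 in hypoxia, below each of its normoxia arrays, a difference of -0.31 (SE 0.15), and EGLN1, the main HIF prolyl hydroxylase, was at 0.41 (SE 0.17). The median of this list was -0.02.

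Metallothioneins, small cysteine-rich proteins that bind zinc and copper and are induced by metals through MTF1, had the highest median of the 41 lists (0.66). Of 10 measured genes 5 rose, namely MT1E (1.11), MT2A (1.03), MT1G (0.98), MT1H (0.85) and MT1M (0.63), and all 10 were above 0. MT2A lay at 10.08, 9.65 and 10.97 in normoxia and 11.20, 11.49 and 11.11 in hypoxia. Its hypoxia arrays all exceeded its normoxia arrays, yet HS401 gained only 0.14 from a high normoxia level. MT1G, at 11.36, 10.50 and 12.11 in normoxia, reached 12.24, 12.29 and 12.37. For the list the medians of the lines were 0.78, 1.19 and 0.12, so the increase was largest in HS360, where MT2A and MT1G were lowest in normoxia. Without HS360 the median was 0.42, and MT2A, MT1G and MT1H fell short of the limits at 0.63, 0.57 and 0.38. Without H9, MT1E (1.0), MT2A (0.99), MT1G (1.02) and MT1H (0.9) did not pass. MT2A also did not pass without the line as a block or with the lower quartile as a covariate (0.92). MT1H gained 0.03 in HS401 and did not pass in the 6 arrays of 7 d alone or with a block for each pair either. Metallothionein genes are near-identical copies, so probes may share signal among them and the single members are uncertain.

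The upstream windows of MT2A and MT1H are shown because both genes rose and have entries in the promoter table, which held 5 of the 10 measured genes. TGCACNC or TGCGCNC, the core of the metal response element, occurred on either strand in all 5, with 8 in MT1H, 7 in MT2A, 4 in MT1X and 3 each in MT1B and MT4. Of all promoters 29.5% held 1 or more, 2.0% 3 or more and 0.153% 5 or more. MT1B, MT4 and MT1X were at 0.38, 0.37 and 0.54 and did not pass the limits, so windows with these cores also belonged to genes that did not rise. Capitals mark the cores on either strand in chr16:56608334-56608583 (MT2A) and chr16:56669564-56669813 (MT1H), both on the plus strand of GRCh38.p14.
MT2A: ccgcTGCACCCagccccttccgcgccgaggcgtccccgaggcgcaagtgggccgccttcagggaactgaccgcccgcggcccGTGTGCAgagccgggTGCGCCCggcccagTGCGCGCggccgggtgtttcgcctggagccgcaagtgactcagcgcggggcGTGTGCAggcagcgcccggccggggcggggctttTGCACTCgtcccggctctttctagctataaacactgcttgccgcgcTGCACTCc
MT1H: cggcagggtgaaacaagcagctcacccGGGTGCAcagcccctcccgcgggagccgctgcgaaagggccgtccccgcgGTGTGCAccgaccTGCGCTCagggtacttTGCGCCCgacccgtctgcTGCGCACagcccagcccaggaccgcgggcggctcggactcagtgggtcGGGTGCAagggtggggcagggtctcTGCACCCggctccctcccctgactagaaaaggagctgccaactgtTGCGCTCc

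MYC, IGFBP2 and ADCY8 were the other adjusted calls that were higher. MYC, the transcription factor of growth and self-renewal, lay at 8.19, 8.25 and 8.61 in normoxia and 9.64, 9.18 and 9.54 in hypoxia, a fold change of 2.15 (log2 1.10, SE 0.15, adjusted p = 0.0339). The groups did not overlap. Its partners and antagonists moved less. MAX was at 0.18, MYCN at 0.02, MYCL at 0.10 and the antagonist MXD1 at 0.46, and MYC was the only one of 12 network genes past the limits. IGFBP2, a binding protein for insulin-like growth factors, lay at 10.90, 10.28 and 10.45 in normoxia and at 11.90, 11.34 and 11.45 in hypoxia (log2 1.02, SE 0.14, adjusted p = 0.0351). The increase was nearly equal in the lines. Of 14 genes of the IGF system no other passed, with IGFBP3 at 0.51, IGF1 at 0.04 and IGF2 at 0.10. ADCY8, a calcium-stimulated adenylate cyclase, was dim, at 6.13, 6.70 and 6.37 in normoxia and 7.37, 8.09 and 7.21 in hypoxia (log2 1.16, SE 0.17, adjusted p = 0.0495). The other 9 adenylate cyclases ranged from -0.09 (ADCY3) to 0.52 (ADCY2).

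**Figure D3:**
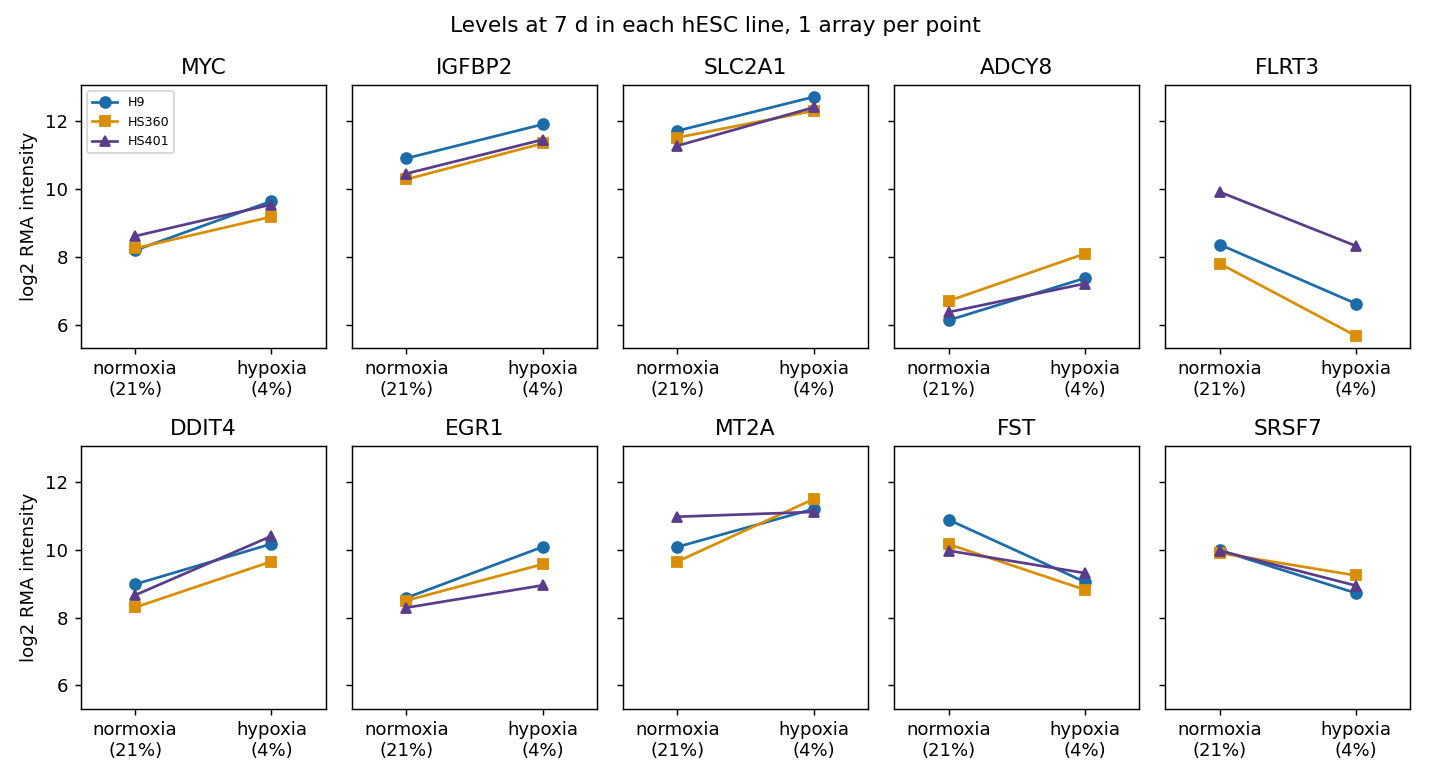
Each panel shows a gene, with normoxia (21% oxygen) and hypoxia (4% oxygen) on the x axis and the log2 RMA intensity at 7 d on the y axis; each line joins the 2 arrays of 1 hESC line. MYC, IGFBP2, SLC2A1 and ADCY8 go up and FLRT3 goes down in all lines, and MT2A is nearly flat in HS401.

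Immediate early genes are induced by growth factor signalling and stress within minutes. Of 26 measured 5 rose and all 26 were above 0, as were 14444 of all 23536 features, and the median was 0.35. By line it was 0.53, 0.17 and 0.40, lowest in HS360 like the fibroblast markers. The same list had medians of -0.10 at 2 h and -0.03 at 24 h. EGR1, a zinc finger transcription factor, lay at 8.58, 8.50 and 8.29 in normoxia and 10.08, 9.57 and 8.95 in hypoxia (log2 1.08, SE 0.19, adjusted p = 0.103). H9 gained most and HS401 least, and the groups did not overlap. CCN1, a matricellular protein and YAP target, rose by 1.01 (SE 0.26), from 8.86, 8.94 and 8.31 to 10.18, 9.39 and 9.57. DUSP1, a MAP kinase phosphatase, and the transcription factors KLF6 and FOS rose by 0.84, 0.77 and 0.70. KLF6 did not pass with the fibroblast covariate (0.52). Without H9, CCN1, DUSP1 and KLF6 were at 0.86, 0.71 and 0.56 and did not pass. Without HS401 these genes were at 0.88, 0.78 and 0.8 and did not pass either, whereas EGR1 passed in both fits. JUN was at 0.90 and did not pass. PHLDA1 (0.87, SE 0.16) was the only one of 12 ERK feedback genes and CCN1 the only one of 12 YAP pathway targets that rose, and both lists had a median of 0.30.

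Chemokines and inflammatory cytokines had a median of 0.37, with 6 of 22 higher and none lower. CXCL8, a chemoattractant for neutrophils, lay at 6.48, 6.31 and 6.08 in normoxia and 7.63, 6.87 and 7.94 in hypoxia (log2 1.19, SE 0.24, adjusted p = 0.162). The groups were separate, although every normoxia value was below the median feature. SPP1, the matrix protein osteopontin, rose by 1.10 (SE 0.31), and its lines were further apart than its conditions, with 8.12, 10.06 and 10.54 in normoxia and 9.54, 11.15 and 11.32 in hypoxia. IL6, CCL26, IL1B and IL1RN rose by 0.77, 0.75, 0.71 and 0.65. CCL26 did not pass without H9 (0.46) or without HS401 (0.88), and neither did IL6 (0.67 and 0.74). IL6 also did not pass after a second normalization of the arrays (0.69) or with arrays centred on their median (0.73). It did not pass without the line as a block or with the line as a random block either. In the same arrays the fibroblast markers were higher in H9 and HS401, the 2 lines in which CXCL8 gained most. With the fibroblast covariate CXCL8 was at 1.11, EGR1 at 1.02 and IL6 at 0.77 and all 3 still passed the study limits, whereas SPP1, at 0.93, did not. Whether fibroblast RNA contributes to these differences was not tested. A covariate whose own markers differed between the conditions cannot decide it.

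FLRT3 had the largest decrease among the features that fell. FLRT3 is a transmembrane protein that acts in cell adhesion and FGF signalling and binds UNC5 and latrophilin receptors. Its level was 8.36, 7.80 and 9.91 in normoxia and 6.62, 5.67 and 8.32 in hypoxia, which is 3.53-fold lower in hypoxia (log2 -1.82, SE 0.24, adjusted p = 0.0339). The groups overlapped only because the lines started apart, since HS401 in hypoxia still exceeded HS360 in normoxia. FLRT2 was at -0.33, FLRT1 at 0.24, and the UNC5 and latrophilin (ADGRL) genes lay between -0.05 and 0.29. FLRT3 was the only one of these 10 genes past the limits.

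Antagonists and modulators of activin and WNT signalling were next. FST, which sequesters activin, fell by 1.28 (SE 0.23, adjusted p = 0.109), from 10.88, 10.16 and 9.97 to 9.05, 8.82 and 9.31, without overlap. FRZB, a secreted WNT antagonist, fell by 1.22 (SE 0.36), from 9.24, 9.16 and 8.49 to 7.35, 7.70 and 8.17. HS401 changed least in both, and FRZB did not pass without H9 (-0.89), without HS360 (-1.10), without the line as a block or with the fibroblast covariate. RSPO3, a secreted WNT agonist, fell by 1.04, but its value rested on HS401 (7.75 in normoxia and 5.50 in hypoxia) and was -0.43 without that line. LGR5, a receptor for R-spondins, and the frizzled receptor FZD4 fell by 0.74 and 0.62. LGR5 was bright only in HS401, at 9.55 in normoxia against 6.12 and 5.94 in the other lines, and was -0.38 without it. FZD4 was at -0.36 without HS401 and did not pass without any 1 of the lines. Neither RSPO3 nor LGR5 passed in a fit of the 6 arrays of 7 d alone. These 4 were all that passed among 37 genes of the WNT list, whose median of -0.02 lay near that of all features.

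In the NODAL, activin and BMP list LEFTY2 rose and FST fell among 24 genes, and 17 were below 0 (median -0.16). LEFTY2, an inhibitor of NODAL, was higher by 0.82 (SE 0.24), from 8.28, 8.52 and 9.26 to 9.51, 9.16 and 9.86, while LEFTY1 was at 0.26 and NODAL at -0.42. The BMP targets ID1, ID2, ID3 and ID4 were at -0.51, -0.22, -0.25 and -0.34, none past the limits. LEFTY2 did not pass without H9 (0.62) or without HS401 (0.94). HEY2, a NOTCH target, rose by 0.64 (SE 0.15) and was the only one of 18 NOTCH genes that passed. It did not pass without H9 (0.54) or without HS360 (0.62). No FGF ligand or receptor passed, with a median of 0.04 over 18 genes, and FGF2, which hESC require, was at 0.24.

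Several genes of RNA processing fell. SRSF7, a serine- and arginine-rich splicing factor, lay at 9.98, 9.90 and 9.97 in normoxia and 8.72, 9.24 and 8.94 in hypoxia, which is 1.98-fold lower (log2 -0.98, SE 0.20, adjusted p = 0.167). Its normoxia values were nearly equal and its groups did not overlap. SRSF3, at 10.95, 10.84 and 11.14 in normoxia, fell by 0.80 (SE 0.21), and SRSF6 fell by 0.65 (SE 0.16). Of 17 genes in the list of SR splicing factors, which includes the kinases CLK1 and CLK4, these 3 fell and none rose, and the median was -0.13. PCF11, which acts in transcription termination, and MED17, a subunit of the mediator complex, fell by 0.88 (SE 0.26) and 0.77 (SE 0.18) among 22 genes of 3′ end processing and mediator, of which 18 were below 0. RBM12, an RNA-binding protein, and NCOA5, a nuclear receptor coactivator outside these lists, fell by 0.97 each. NCOA5 lay at 8.27, 8.74 and 8.24 in normoxia and 7.58, 7.86 and 6.91 in hypoxia. Without H9, SRSF3, SRSF6, PCF11, MED17 and RBM12 did not pass, at -0.63, -0.62, -0.71, -0.66 and -0.74. SRSF3, SRSF6 and PCF11 did not pass without HS401 either.

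Of 29 measured DNA replication genes 3 fell and none rose. In all 27 were below 0, as were 9006 of all 23536 features, 19 were lower in each of the 3 lines and none was higher in each, and the median was -0.26 (-0.43, -0.19 and -0.16). GINS3, part of the replicative helicase, fell by 0.81 (SE 0.15), from 7.84, 8.13 and 7.60 to 7.20, 7.14 and 6.80. POLD3, a subunit of DNA polymerase delta, and RFC3, of the clamp loader, fell by 0.67 and 0.62, and neither passed without H9, with the lower quartile as a covariate or with the fibroblast covariate. The sliding clamp PCNA was at -0.55 and MCM2 at -0.32. The median of 27 cell cycle regulators was 0.01 and none passed, with CCNE1 at -0.52, MKI67 at 0.12 and CDKN1A at 0.70. The median of the replication list was -0.16 without H9 and -0.16 with the fibroblast covariate.

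Further groups with members that fell concerned ribosomes, mitochondria and protein folding. In ribosome biogenesis DDX52, POLR3B and NIP7 fell by 0.86, 0.69 and 0.60, and 16 of 23 genes were below 0. Abundant nucleolar genes were near 0, with NPM1 at 0.18, NCL at 0.16 and FBL at 0.11. In mitochondrial import and assembly HCCS, which attaches haem to cytochrome c, fell by 0.72, the complex I assembly factor NDUFAF1 by 0.69, and TOMM5 and COA7 by 0.59 each. Of 35 subunits of complex I none passed, although 26 were below 0, with a median of -0.12 and NDUFC2 lowest at -0.58. DNAJA1, a cochaperone of HSP70, fell by 0.89 (SE 0.22) and was the only one of 22 heat shock genes that did. EDEM3, of glycoprotein degradation, fell by 0.68 in a list of 22 unfolded protein response genes with a median of 0.03. POGLUT1, which adds glucose to NOTCH repeats, fell by 1.09 (SE 0.28), from 7.92, 8.21 and 7.64 to 6.29, 7.33 and 6.89. Of 537 genes with a ZNF symbol, a group formed after the values had been seen, 6 fell, none rose and 188 were above 0, with a median of -0.09.

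MIR17HG, the host transcript of the miR-17-92 cluster, fell by 1.06 (SE 0.33). It lay at 9.19, 9.99 and 8.37 in normoxia and 8.16, 8.82 and 7.40 in hypoxia, so that each line lost about the same amount while the groups overlapped. It did not pass without H9 (-1.07), without the line as a block, with arrays centred on their median (-1.10) or with the fibroblast covariate (-0.86). MYC is known to activate this cluster, and MYC was higher and the host transcript lower in every line. The mature miRNAs were not measured. The 6 miRNAs are shown to identify the cluster, from RefSeq annotation of chromosome 13, with the seed (bases 2 to 8) in capitals. miR-17-5p and miR-20a-5p share a seed, as do miR-19a-3p and miR-19b-3p.
hsa-miR-17-5p: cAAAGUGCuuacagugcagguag
hsa-miR-18a-5p: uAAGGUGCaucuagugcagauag
hsa-miR-19a-3p: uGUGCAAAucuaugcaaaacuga
hsa-miR-20a-5p: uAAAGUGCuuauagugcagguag
hsa-miR-19b-3p: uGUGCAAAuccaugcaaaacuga
hsa-miR-92a-3p: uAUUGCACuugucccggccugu

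Lipid, matrix and neuronal genes went in both directions. SOAT1, which esterifies cholesterol for storage, fell by 1.12 (SE 0.22, adjusted p = 0.153), from 8.06, 7.67 and 7.52 to 6.61, 6.27 and 7.01. SGPL1, CEPT1 and the cholesterol exporter ABCA1 fell by 0.65, 0.63 and 0.62, whereas lipoprotein lipase (LPL) and VLDLR, which act together in uptake, rose by 0.79 and 1.03. The list of 18 lipid genes thus held 2 that rose and 4 that fell. No gene of cholesterol synthesis passed, with a median of 0.05 over 16 genes. Hyaluronan turnover was represented by HAS2, a synthase, and CEMIP2, a cell-surface hyaluronidase, which fell by 0.96 (SE 0.30) and 0.84 (SE 0.23). HAS2 ranged from 8.86 to 11.51 over the lines in normoxia and was lower in each, but it was at -0.62 and did not pass without HS360. PLOD2, ADAMTS20 and TM4SF1 rose by 0.86, 0.78 and 0.73, and the median of 27 matrix genes was 0.29 (0.49, -0.01 and 0.41), lowest in HS360 like the fibroblast markers, and 0.09 with the fibroblast covariate.

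Among genes of neurons, PCDH10, a protocadherin, NPTX1, a pentraxin of synapses, and SYT4, a synaptotagmin, rose by 0.95, 0.91 and 0.80. NPTX1 lay at 7.41, 7.38 and 7.24 in normoxia and 8.72, 8.04 and 8.01 in hypoxia, without overlap. ELAVL2 rose by 0.60, while the neuropeptide gene NTS and the ankyrin ANK2 fell by 0.97 and 0.61, so that 4 rose and 2 fell of 24 (median 0.19). NTS rested on HS360 (8.46 in normoxia and 6.60 in hypoxia), and it was at -0.52 and did not pass without that line. Of 33 ion channels and transmitter receptors 4 rose, namely KCNJ2 (0.80), HTR2C (0.72), GABRA2 (0.65) and HTR7 (0.59). In that list 32 were above 0, but its median was 0.13 (0.24, 0.1 and 0.13 in the lines). Its members were dim with a median level of 6.45, and dim features leaned upward in H9 and HS360 but not in HS401. HTR2C rose in H9 and HS360 and was at 6.04 and 6.02 in the 2 arrays of HS401. It was at 1.10 without HS401 and did not pass in the 6 arrays of 7 d alone, and KCNJ2 was at 0.48 and did not pass without H9. In the endothelial list EDNRB, an endothelin receptor, and the phosphatase PTPRB rose by 1.03 and 0.67, whereas PECAM1 and CDH5 were at -0.01 and 0.10.

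Pluripotency and lineage genes differed little by comparison. Of 24 measured pluripotency factors and hESC markers LEFTY2 alone rose and none fell, with 11 above and 12 below 0 and a median of -0.01. SOX2 was at -0.10 (SE 0.17), SALL4 at -0.07 (SE 0.15), DPPA4 at 0.02 (SE 0.15) and LIN28B at -0.53. PAX6, a regulator of neuroectoderm, fell by 0.84 (SE 0.24), from 7.85, 5.69 and 6.17 to 6.28, 5.45 and 5.46, with most of the drop in H9 (-0.48 without that line). It was the only one of 19 neuroectoderm regulators that passed, with OTX2 at -0.46 and SOX1 at 0.10. MSX2, a homeobox gene of the BMP response, fell by 0.64 (SE 0.19) among 18 trophoblast genes, but it was at -0.40 and did not pass without HS401. None of 20 mesendoderm regulators passed, with TBXT at -0.05, EOMES at 0.18 and AFP at -0.80, where AFP was bright only in HS401 in normoxia. The JmjC histone demethylases, BCL2 family, integrins and laminins, antioxidant genes and leukocyte markers had no member past the limits and medians of 0.08, 0.12, 0.10, -0.06 and 0.10. Of the demethylases KDM3A and KDM7A were highest at 0.55 and 0.48.

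**Figure D4:**
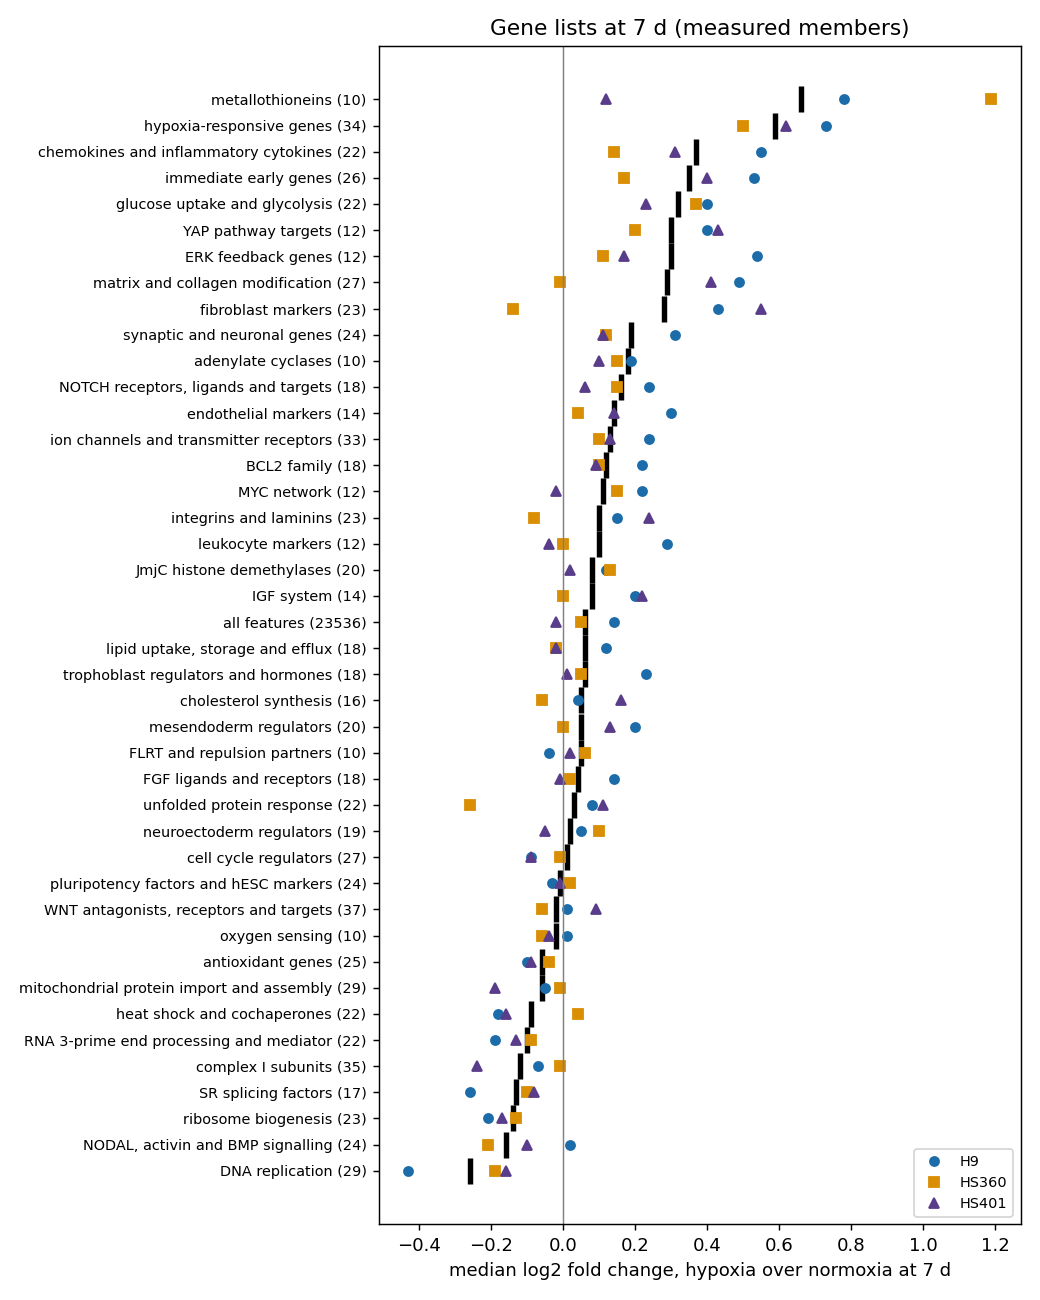
For each of the 41 gene lists and for all features, the black bar is the median log2 fold change of hypoxia over normoxia at 7 d in the fit and the symbols are the medians in H9, HS360 and HS401; the number of measured genes stands in parentheses. Hypoxia-responsive genes are well above 0 in every line, metallothioneins and fibroblast markers differ between lines, and DNA replication lies lowest.

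Whether a gene differed at 7 d through the hypoxic or the normoxic cultures was examined by setting each condition at 7 d against the mean of its own 2 h and 24 h arrays. These contrasts share the 7 d arrays with the main comparison, and cultures of 7 d were also older, so they are a description of levels. In normoxia 203 features (0.863%) were higher and 281 (1.19%) lower at 7 d at an adjusted p under 0.05, and in hypoxia 577 (2.45%) were higher and 645 (2.74%) lower. Of the 120 features higher in hypoxia, 39 were up over time in hypoxia and 12 were down over time in normoxia. Of the 84 lower features, 41 were down over time in hypoxia and 9 were up in normoxia.

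FLRT3, FST and FRZB belonged to those that changed over time in normoxia. FLRT3 averaged 7.36 ± 1.70 at 2 h, 7.26 ± 1.04 at 24 h and 8.69 ± 1.09 at 7 d in normoxia (SD, 3 lines), and 7.11 ± 1.27, 7.40 ± 1.44 and 6.87 ± 1.34 in hypoxia. In the fit it was higher by 1.38 in normoxia over time (adjusted p = 0.00355), while the hypoxic cultures changed by -0.38 (adjusted p = 0.254). FST changed by 0.96 (adjusted p = 0.0218) and -0.42 (adjusted p = 0.206), FRZB by 2.11 (adjusted p = 0.00355) and 0.92 (adjusted p = 0.102), PAX6 by 1.10 (adjusted p = 0.0136) and 0.13 (adjusted p = 0.68), and MSX2 by 0.92 (adjusted p = 0.00838) and 0.14 (adjusted p = 0.562). All 5 were thus higher in normoxia at 7 d than earlier.

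The splicing factors and several other genes that fell showed the reverse. SRSF7 changed by 0.07 in normoxia over time (adjusted p = 0.967) and by -0.92 in hypoxia (adjusted p = 0.00958). NCOA5 changed by -0.40 and -1.48 (adjusted p = 0.335 and 0.00144), DNAJA1 by -0.15 and -1.15 (adjusted p = 0.914 and 0.00564), and NETO2, an auxiliary subunit of glutamate receptors, by -0.59 and -1.65 (adjusted p = 0.313 and 0.0038). These genes were lower in the hypoxia arrays of 7 d than in any earlier group mean.

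Higher genes also fell into both kinds. EGR1 changed by 0.16 in normoxia and 1.35 in hypoxia (adjusted p = 0.865 and 0.00144), and NPTX1 by 0.09 and 1.04 (adjusted p = 0.963 and 0.00497). CXCL8 instead changed by -1.70 in normoxia (adjusted p = 0.0015) and -0.53 in hypoxia (adjusted p = 0.144), from group means of 7.75 and 8.23 at 2 h and 24 h to 6.29 in normoxia and 7.48 in hypoxia at 7 d. COL1A1 and COL3A1 were at 0.44 and 0.37 for hypoxia against normoxia with the fibroblast covariate, which includes both genes. NDRG1, IL6, COL1A1 and COL3A1 likewise changed by -1.28, -1.30, -1.32 and -1.49 in normoxia (adjusted p = 0.00639, 0.00355, 0.0015 and 0.0015). In these genes the hypoxic cultures of 7 d lay between the earlier cultures and the normoxic cultures of 7 d. In hypoxia NDRG1 and IL6 changed by -0.62 and -0.36 (adjusted p = 0.106 and 0.254). COL1A1 and COL3A1 changed by -0.58 and -0.68 in hypoxia (adjusted p = 0.0468 and 0.049), so both were lower over time in both conditions. DCN, PDGFRB and FAP, also fibroblast markers, were lower at 7 d than earlier in both conditions, with differences of -2.71, -1.65 and -2.33 in normoxia and of -1.76, -0.99 and -1.70 in hypoxia, each at an adjusted p under 0.05. MYC combined both, with -0.48 in normoxia (adjusted p = 0.0783) and 0.36 in hypoxia (adjusted p = 0.119), neither past the adjustment.

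**Figure D5:**
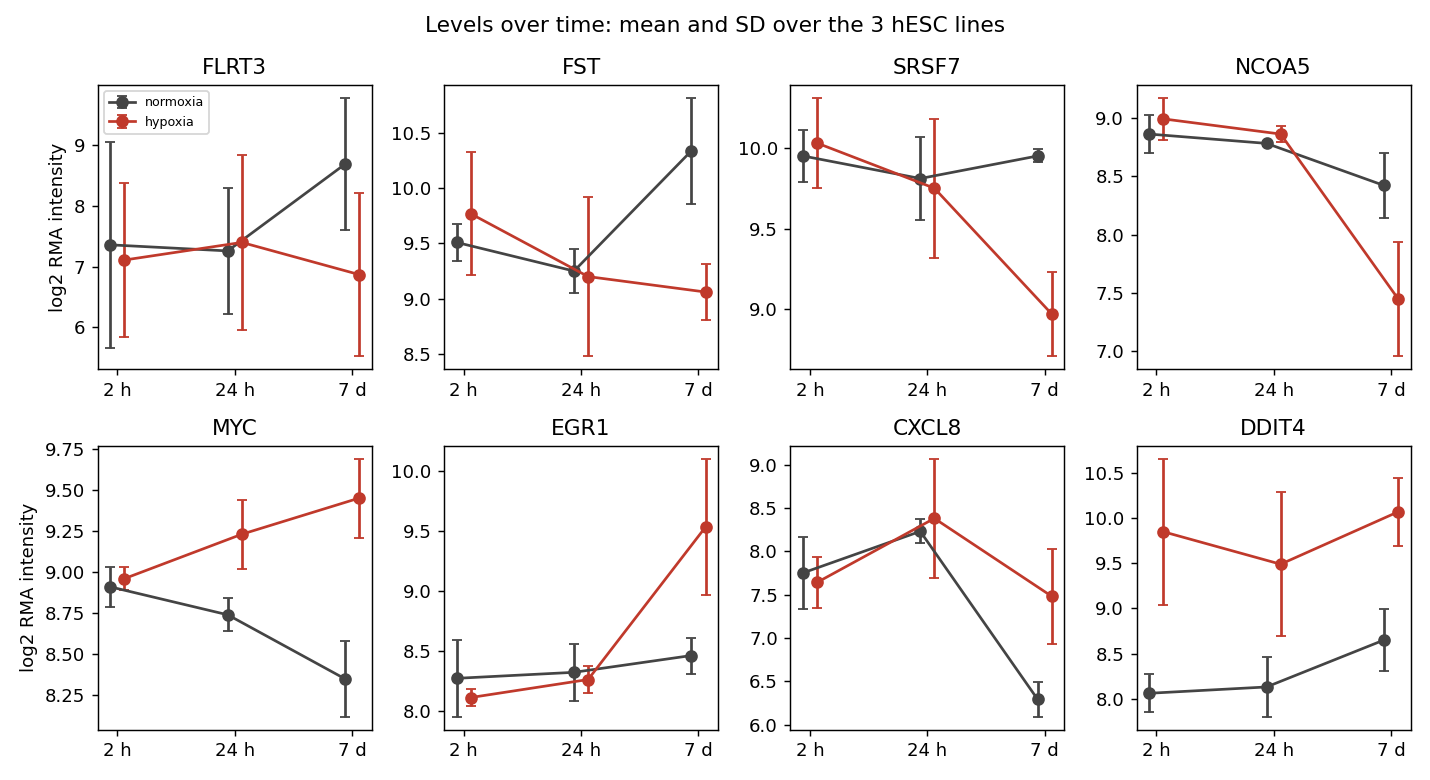
Points are the means of the 3 hESC lines and bars the SD, with the time in culture condition on the x axis and the log2 RMA intensity on the y axis, for normoxia (grey) and hypoxia (red). The y axes differ between panels. At 7 d FLRT3 and FST are high in normoxia (8.69 and 10.34), SRSF7 and NCOA5 low in hypoxia (8.97 and 7.45), EGR1 high in hypoxia (9.53) and CXCL8 low in normoxia (6.29), while DDIT4 is higher in hypoxia at all times.

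Some features outside the rule for named genes are given because their values stood out, and they were thus chosen after the values were seen. TERC, the RNA component of telomerase, was at 0.67 (SE 0.19). PRODH, a proline dehydrogenase, was at 0.91 (SE 0.16), from 8.97, 8.34 and 8.24 to 10.32, 8.90 and 9.06. CPS1, the first enzyme of the urea cycle, was at -0.79 (SE 0.18), lower in each line. SNORD116-28 and SNORD116-11, copies of a small nucleolar RNA family, were at -1.12 (SE 0.27) and -0.83 (SE 0.21), while SNORD115-7 was at 1.20 (SE 0.26) from normoxia levels of 3.05 to 3.70. These RNAs are near-identical copies and their features are uncertain. MME, the surface peptidase CD10, and GALNT3, an enzyme of mucin-type glycosylation, were at 0.81 (SE 0.26) and 0.71 (SE 0.22), both without overlap of the groups.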

How the data were processed

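RNA of 18 cultures (3 hESC lines in 6 groups of 3 arrays) was hybridised to Affymetrix exon arrays. The authors processed the arrays with RMA and a custom annotation by Entrez gene, and the deposited values were linear intensity values per feature without counts, whose precision is limited among other things by the number of arrays. The genome build is not given in the sources used here. Their log2 was taken, and this comprised 23536 features, of which 20727 had a symbol in the platform table and 2809 had none and are not named. limma 3.58.1 in R 4.3.3 was fitted to all 18 arrays with 6 group terms and a block for each hESC line. The p-values of hypoxia against normoxia at 7 d received a Benjamini-Hochberg correction across all features. The code was tested on simulated data. Each p rests on the variation left after the group and line terms, pooled over all 18 arrays and moderated by limma. There was 1 culture per line and group. The p-values thus do not measure how far the lines differed at 7 d alone.

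The block rests on the cell line itself. Deviations of paired arrays from their group means correlated at 0.397, 0.483 and 0.505 at 7 d, and at -0.00534 to 0.776 over all 9 pairs. Genes were named where they passed the adjusted p, were among the 15 largest changes per direction past the study limits with the same sign in each line, were discussed in the study for 7 d, led 1 of 41 lists (up to 4 members past the limits, otherwise 2) or defined a cell type. Other list members are given for context. The genes, lists and the motifs were chosen with earlier results of these data known. Levels of Y-linked genes and XIST were left out. Alternatives varied the block, arrays, normalization, filter and variance model, and left out each line. The covariate of fibroblast markers was added after seeing the data.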

Additional observations from a re-analysis of the deposited data

Results flagged for a closer look

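For 10 genes every line moved in one direction at 7 d and every line in the opposite direction at an earlier time. Only the 79 named genes past the study limits were searched. The share over all features was not counted, so the number of genes has nothing to be compared with. RAB17 was at 1.07 at 7 d and -0.13 at 2 h, CCN1 at 1.01 and -0.72, and DUSP1 at 0.84 and -0.11. KCNJ2 was at 0.80 and -0.36, IL6 at 0.77 and -0.20, and KLF6 at 0.77 and -0.32. COL3A1 was at 0.63 at 7 d, -0.27 at 2 h and -0.10 at 24 h, and COL1A1 was at 0.63 and, at 24 h, -0.11. PAX6 was at -0.84 at 7 d and 0.25 at 24 h, and NCOA5 at -0.97, against 0.13 at 2 h and 0.09 at 24 h. The difference between the effect at 7 d and the mean of the earlier effects had an unadjusted p of 0.000564 to 0.0102 in limma. The adjusted p was 0.88 for each of them, so that none passed the adjustment. The genes were picked by such a difference, so the unadjusted values are only a description.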

How the results depend on the processing

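The adjusted calls depended on the fit. No named gene past the study limits changed direction under any alternative run, but this was largely fixed in advance. Nearly all of these genes had the same sign in each line, and several of the fits return the same fold changes as the main fit. Against 5 adjusted calls, 120 higher, 84 lower and 1671 features at an unadjusted p under 0.05, the fit with no replicate block (line not used for pairing) gave 0, 63, 47 and 937. A random block gave 1 adjusted call, and a block for each of the 9 pairs gave 0, with 148 lower features. The 6 arrays of 7 d alone gave 1, 221, 187 and 3362. Without the 5 arrays of low lower quartile there were 2 adjusted calls, 185 higher features and 3363 at an unadjusted p under 0.05, and with the lower quartile as a covariate there were 40 adjusted calls and 2543. Centring on the median gave 0 adjusted calls, the trend and robust variance model 9, and the features above the median level 19, with 68 higher. Leaving out each line in turn gave 0 adjusted calls, 81 to 207 higher, 50 to 166 lower and 607 to 1822 at an unadjusted p under 0.05. The fibroblast covariate, added after seeing the data, gave 0 adjusted calls and 55 lower features. Of 79 named genes past the study limits 48 passed with no replicate block, 54 with the fibroblast covariate, and 30, 62 and 47 without H9, HS360 and HS401. The cause of these changes was not tested, apart from the fewer arrays or features that some fits use. No feature passed an adjusted p for the difference from the earlier effects in any of these fits that held arrays of 2 h and 24 h. The fit of the 6 arrays of 7 d could not test it.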

Other observations

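The 6 genes with a ZNF symbol that fell, most of them putative DNA-binding repressors, lie outside the rule for named genes and were chosen after the values were seen. ZNF566 was at -0.87 (SE 0.24), ZNF415 at -0.78 (SE 0.26), ZNF45 at -0.77 (SE 0.19), ZNF607 at -0.70 (SE 0.23), ZNF140 at -0.61 (SE 0.17) and ZNF32 at -0.60 (SE 0.20). ZNF45 lay at 6.63, 6.85 and 6.25 in normoxia and 5.92, 6.07 and 5.42 in hypoxia, without overlap, and the groups were also separate for ZNF415, ZNF607 and ZNF140. ZMPSTE24, the protease that matures lamin A, was at -0.80 (SE 0.26), PSMD12, a subunit of the proteasome, at -0.65 (SE 0.22) and COCH, a secreted matrix protein of the inner ear, at -0.87 (SE 0.21). In the other direction, TBC1D2, a Rab GTPase-activating protein, was at 0.98 (SE 0.18), from 7.25, 7.18 and 7.39 to 8.39, 8.13 and 8.25, and KLF7, a Krueppel-like factor, was at 0.84 (SE 0.21), both without overlap. SCNN1G, a subunit of the epithelial sodium channel, and TENM1, a teneurin, were each at 0.63, and A2ML1, a protease inhibitor, was at 0.96 (SE 0.15).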
